A study of Mus musculus with 12 samples.

Results

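Mouse mammary tumours treated with MBQ-167 alone were compared with tumours given vehicle, across all expressed genes. The comparison holds 6 of the 12 libraries of the study, 3 from the MBQ-167 group and 3 from the vehicle group, and they were chosen by their treatment labels. To raise them, 300000 4T1 cells, a mouse mammary carcinoma line with a luciferase reporter, were placed in the mammary fat pad number 4 of BALB/c mice, and the labels give the genotype of every group as wild type. The MBQ-167 group received 100 mg/kg of the drug on 5 days of each week for 2 weeks from day 14, the paclitaxel group 5 mg/kg on 1 day of each week, the combination group both drugs, and the vehicle group neither. All tumours were collected on day 28, and polyadenylated RNA was sequenced from bulk tumour extract. The labels call the 3 libraries of a group biological replicates without saying that each is a separate mouse. The p-values therefore reflect library-to-library spread, which may be technical. The study injected mice on 2 occasions that are not tied to libraries, and an effect of occasion cannot be told apart from one of group. In bulk tissue, fewer cells of a type and less RNA per cell cannot be told apart either.

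MBQ-167 is a small molecule that inhibits the GTPases Rac and Cdc42, which cycle between a GTP-bound active and a GDP-bound inactive form. Active Rac and Cdc42 bind effectors such as the p21-activated kinases and the WASP family proteins, and so direct actin branching, cell migration and signalling through MAP kinases to the nucleus. In carcinoma cells they are known for their part in invasion and metastasis. The drug acts on the proteins, and the measurements here are of mRNA.

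Of 18252 genes tested, 17 passed in MBQ-167 against vehicle (0.0931%), 3 of them higher (0.0164%) and 14 lower (0.0767%). With limma voom 15 passed (0.0822%), and with DESeq2, which tested 30757 genes, 317 did (1.03%). Passing means an adjusted p under 0.05 with edgeR's quasi-likelihood test. Most genes that fell encode factors of the rapid transcriptional response to stimuli, of stress signalling or of glucocorticoid hormone signalling. Below that threshold, genes induced by interferon stood higher in the MBQ-167 tumours, and genes of heat shock, hypoxia, ribosomes and mitochondrial respiration stood lower. At an unadjusted p under 0.05, 1062 genes were higher (5.82% of those tested) and 1286 lower (7.05%). The 3 MBQ-167 libraries lay entirely above the 3 vehicle libraries in 1558 genes (8.54%) and entirely below them in 1604 (8.79%). These shares of all genes are the background for the counts of list members below. The median log2 fold change over all genes was 0.00, and the median standard error (SE) of a gene was 0.23.

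**Figure D1:**
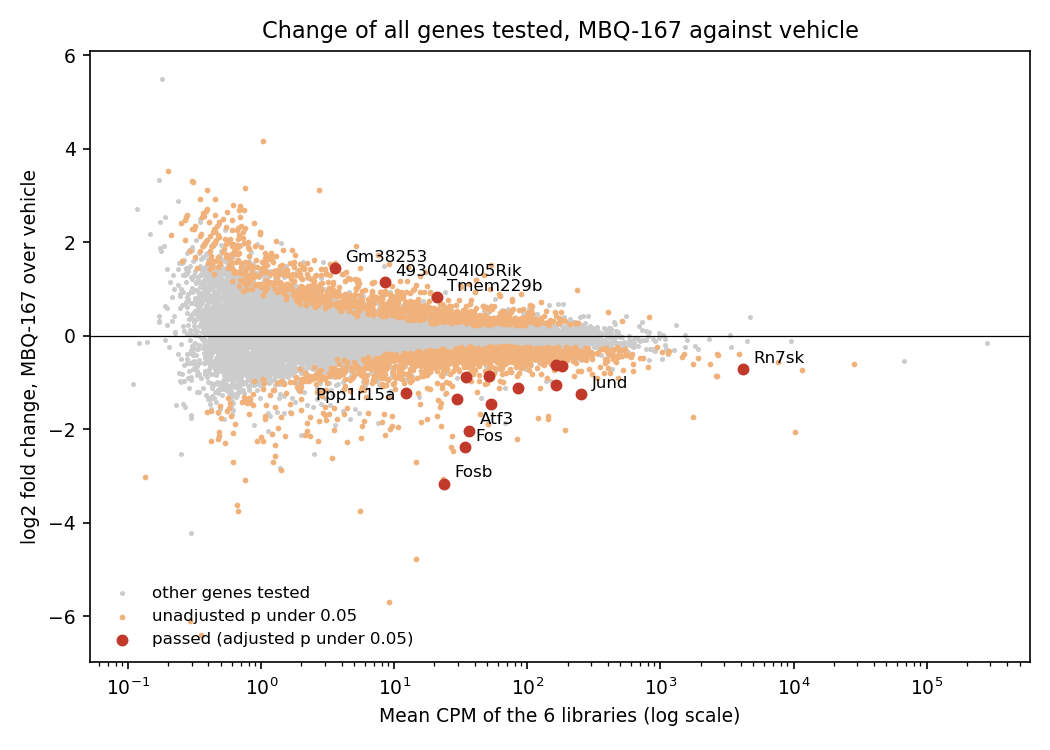
Log2 fold change of MBQ-167 over vehicle against mean expression for the genes tested. Grey points are genes with an unadjusted p of 0.05 or more, orange points those below it, and red points the 17 genes that passed. The genes that passed lie between -3.16 and 1.45, and most of them below 0.

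The promoters of 3 of the genes that fell and of 3 genes of the lists described below are printed as examples. Not every member shares the marked sequences. Windows of 250 bases before to 50 bases after the transcription start came from RefSeq on GRCm38.p6, and 14 of the 17 genes that passed have such a window. A RefSeq start can differ from the gene model used here, and the Jund window ends at 70697788, before the gene start at 70698949. In the first 3, capitals mark the core of the cAMP response element (CRE), searched as TGACG on both strands, which binds factors of the CREB and ATF families.
Fos (chr12:85473640-85473939, plus strand): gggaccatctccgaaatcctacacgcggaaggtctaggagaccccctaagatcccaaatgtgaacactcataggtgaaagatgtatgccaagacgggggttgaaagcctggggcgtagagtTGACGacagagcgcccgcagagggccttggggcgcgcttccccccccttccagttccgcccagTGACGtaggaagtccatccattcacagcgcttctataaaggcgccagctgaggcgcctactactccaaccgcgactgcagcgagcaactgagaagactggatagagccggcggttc
Dusp1 (chr17:26508423-26508722, minus strand): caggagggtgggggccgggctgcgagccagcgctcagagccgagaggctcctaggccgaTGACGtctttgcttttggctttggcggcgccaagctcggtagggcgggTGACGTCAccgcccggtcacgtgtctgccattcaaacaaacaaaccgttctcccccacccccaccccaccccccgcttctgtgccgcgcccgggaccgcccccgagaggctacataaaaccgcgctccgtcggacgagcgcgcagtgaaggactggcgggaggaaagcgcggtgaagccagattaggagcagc
Ppp1r15a (chr7:45526219-45526518, minus strand): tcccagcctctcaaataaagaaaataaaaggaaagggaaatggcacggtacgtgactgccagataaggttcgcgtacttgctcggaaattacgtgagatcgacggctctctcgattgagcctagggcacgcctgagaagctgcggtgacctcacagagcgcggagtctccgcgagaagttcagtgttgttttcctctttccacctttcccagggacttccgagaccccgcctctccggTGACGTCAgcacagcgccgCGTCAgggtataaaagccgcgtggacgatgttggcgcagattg
In the next pair, of interferon-induced genes, capitals mark the interferon response element, searched as GAAANNGAAA, and the gamma activated site that binds STAT factors, searched as TTCNNNGAA. Both were searched on both strands, and they may overlap each other.
Gbp7 (chr3:142530086-142530385, plus strand): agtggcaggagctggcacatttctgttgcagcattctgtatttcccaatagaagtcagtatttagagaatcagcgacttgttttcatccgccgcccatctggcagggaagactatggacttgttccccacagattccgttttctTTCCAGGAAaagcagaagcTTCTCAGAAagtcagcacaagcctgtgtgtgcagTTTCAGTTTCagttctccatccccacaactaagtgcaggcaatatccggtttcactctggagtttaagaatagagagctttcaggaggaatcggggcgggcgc
Irgm2 (chr11:58214727-58215026, plus strand): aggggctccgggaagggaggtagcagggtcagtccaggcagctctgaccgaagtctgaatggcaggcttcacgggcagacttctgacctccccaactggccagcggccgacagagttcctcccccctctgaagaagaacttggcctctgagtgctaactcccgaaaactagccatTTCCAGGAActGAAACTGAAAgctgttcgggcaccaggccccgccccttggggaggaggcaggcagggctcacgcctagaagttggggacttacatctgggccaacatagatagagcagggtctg
In the last, of a heat shock gene, capitals mark the heat shock element, searched as GAANNTTC on both strands.
Hspa1b (chr17:34959189-34959488, minus strand): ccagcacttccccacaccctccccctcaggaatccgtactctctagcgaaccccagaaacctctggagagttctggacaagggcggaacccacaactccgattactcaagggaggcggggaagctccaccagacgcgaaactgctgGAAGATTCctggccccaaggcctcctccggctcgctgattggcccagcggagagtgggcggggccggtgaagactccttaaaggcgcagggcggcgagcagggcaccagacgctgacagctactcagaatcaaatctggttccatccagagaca
A match is a description of letters in a window. Motif shares of the lists below count all tested members with a window, whether they changed or not. They describe the lists and say nothing about the drug. The CRE core lay in 7 of the 12 windows of genes that fell (58.3%), and in 30.4% of the 11414 windows of genes tested. It also lay in 11 of 20 windows of the immediate early list (55.0%), which holds several of the genes that fell. Among those 12, the printed windows of Fos, Dusp1 and Ppp1r15a hold the most matches. Fkbp5, Cited2, Jund, Klf6 and Serpinb6a had no match, and 4930404I05Rik, a gene that rose, had 1. The CRE core lay in 33.3% of the 816 windows of genes lower at an unadjusted p under 0.05. The hypoxia core ACGTG lay in 6 of the 12 windows of genes that fell and in 25.2% of all. The CArG box, the site of serum response factor, lay in 0 of those 12 windows and in 1.34% of all. With so low a share, 0 of 12 says little, and sequence more than 250 bases upstream was not searched.

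Depth was alike in the groups. Total counts were 13947914 to 15746272 in the MBQ-167 libraries and 14119192 to 16419510 in the vehicle libraries. Protein-coding genes took 55.29% to 60.66% of the counts with MBQ-167 and 52.66% to 58.57% with vehicle. The features Gm26917, Gm42418 and mt-Rnr2, each above 2% of all counts, together took 32.5% to 38.42% with MBQ-167 and 33.62% to 38.73% with vehicle. The third vehicle library stood apart. Its neutrophil markers summed to 2076 CPM (counts scaled to library size, with TMM factors), against 844 and 924 CPM in the other vehicle libraries and 694 to 743 CPM in the MBQ-167 libraries. It also had the lowest levels of T cell, macrophage and antigen presentation genes, so counts of many lists are given with and without it. In the fit without it, 6.81% of genes were higher and 7.25% lower at an unadjusted p under 0.05. With the neutrophil marker level of each library in the model, 5.81% were higher and 6.4% lower. That level, a mean log2 CPM relative to all 12 libraries, was -0.0509 to 0.217 with MBQ-167 and 0.636 to 2.56 with vehicle. It separates the 2 groups, so a fit with it cannot tell an effect of neutrophil level apart from one of group. A gene that misses the threshold in that fit is not thereby tied to neutrophils. Libraries also differed in how expression moved with the GC content of transcripts, with a correlation across genes of 0.00255 to 0.145 in the MBQ-167 libraries and 0.114 to 0.303 in the vehicle libraries. Values of a GC-corrected fit are given beside some results only, and other counts at an unadjusted p under 0.05 moved too. Type I interferon genes went from 14 to 11 higher, and hypoxia-induced genes from 11 to 13 lower.

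Several genes that fell encode subunits and relatives of AP-1, the transcription factor formed by Fos and Jun proteins. Fos (ENSMUSG00000021250, GRCm38 chromosome 12, 85473890 to 85477273) had 10.3, 10.2 and 12.4 CPM in the MBQ-167 libraries, against 45.3, 61.8 and 64.1 CPM in the vehicle libraries. Its log2 fold change was -2.38 ± 0.23 (SE, n = 3 per group, edgeR adjusted p = 0.000843). Fosb (ENSMUSG00000003545, chromosome 7, 19302696 to 19310051) had 4.58, 6.79 and 3.04 CPM with MBQ-167, against 53.7, 36.8 and 37.5 CPM with vehicle (-3.16 ± 0.40, adjusted p = 0.00475). In both genes every MBQ-167 library lay far below every vehicle library. Jund (ENSMUSG00000071076, chromosome 8, 70698949 to 70700616) had 150, 156 and 148 CPM with MBQ-167, against 445, 290 and 337 CPM with vehicle (-1.24 ± 0.20, adjusted p = 0.026). It overlaps the antisense gene Gm11175. The sources used here do not say whether counting used strand, and without it reads of such pairs cannot be told apart. Atf3 (ENSMUSG00000026628, chromosome 1, 191170296 to 191218039), a stress-induced partner of AP-1 proteins that overlaps the antisense gene Gm24748, had 14.3, 15.5 and 13.4 CPM with MBQ-167, against 54.9, 67.3 and 54.4 CPM with vehicle (-2.03 ± 0.22, adjusted p = 0.0016).

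Negative regulators and Krüppel-like factors fell as well. Dusp1 (ENSMUSG00000024190, chromosome 17, 26505590 to 26562128), a phosphatase that inactivates MAP kinases and is induced by growth factors and glucocorticoids, had 27.6, 31.6 and 26.0 CPM with MBQ-167, against 60.9, 83.6 and 90.1 CPM with vehicle. Its log2 fold change was -1.46 ± 0.16 (SE, edgeR adjusted p = 0.0016), and the long gene model overlaps Ergic1 and Gm8225 on the opposite strand. Klf2 (ENSMUSG00000055148, chromosome 8, 72319033 to 72321656), known for keeping endothelium and lymphocytes quiescent, had 20.2, 16.9 and 12.7 CPM with MBQ-167, against 36.8, 49.5 and 41.7 CPM with vehicle (-1.36 ± 0.17, adjusted p = 0.00475). In neither gene did the groups overlap. Klf6 (chromosome 13, 5861482 to 5870394), another zinc finger factor of that family, had 142, 146 and 133 CPM with MBQ-167, against 218, 194 and 251 CPM with vehicle (-0.65 ± 0.11, adjusted p = 0.0377). Of the 26 immediate early genes tested, 6 fell, 18 were lower and 0 higher at an unadjusted p under 0.05, and the median was -0.51. Leaving out the third vehicle library left 16 lower, and putting the neutrophil level in the model left 14. When each of the 6 libraries was left out in turn, Fos, Dusp1, Atf3 and Klf2 always passed. In a model of the 6 libraries alone Klf2 had an adjusted p of 0.0804, and of the 17 genes only Fos, Fosb, Atf3 and Dusp1 passed. With the neutrophil level in the model those 4 and Klf2 passed, and Jund (adjusted p = 0.102) and Klf6 (adjusted p = 0.206) did not. Without the third MBQ-167 library, Fosb had -2.91 (adjusted p = 0.0568). Jund missed the threshold without each MBQ-167 library and without the first vehicle library (adjusted p up to 0.194, with values between -1.37 and -1.06), and Klf6 missed it in 5 of the 6 fits (adjusted p up to 0.301).

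A glucocorticoid target and a regulator of Wnt signalling fell by about 1 on the log2 scale. Fkbp5 (ENSMUSG00000024222, chromosome 17, 28399094 to 28517527), a co-chaperone of the glucocorticoid receptor and a classic target of it, had 119, 117 and 86.4 CPM in MBQ-167 tumours, against 204, 198 and 264 CPM in vehicle tumours. Its log2 fold change was -1.05 ± 0.15 (SE, edgeR adjusted p = 0.0168). Tcim (ENSMUSG00000056313, chromosome 8, 24437180 to 24438984), known from human cells as a positive regulator of Wnt signalling, had 50.8, 54.4 and 55.5 CPM with MBQ-167, against 106, 98.4 and 142 CPM with vehicle (-1.11 ± 0.14, adjusted p = 0.00475). Every MBQ-167 library lay below every vehicle library in both. Without the second MBQ-167 library Tcim had an adjusted p of 0.0502 at -1.12. Fkbp5 missed the threshold without the second MBQ-167 library (-1.12, adjusted p = 0.0757) and without the third (-0.92, adjusted p = 0.0988). With the neutrophil level in the model Tcim had -0.84 (adjusted p = 0.0836) and Fkbp5 had -0.78 (adjusted p = 0.121), and in a model of the 6 libraries alone their adjusted p was 0.0758 and 0.13. On the opposite strand Tcim overlaps Gm26714, and Fkbp5 overlaps AC154912.1 and Gm22146.

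The remaining genes that fell have roles in the stress response, the clock, transcription and proteolysis. Ppp1r15a (chromosome 7, 45522916 to 45526268), known as GADD34, recruits a phosphatase that resets eIF2α and so ends the integrated stress response. It had 7.45, 7.58 and 6.76 CPM with MBQ-167, against 15, 19.9 and 16.4 CPM with vehicle (-1.23 ± 0.18, edgeR adjusted p = 0.0175), and it overlaps Tulp2 on the opposite strand. Nfil3 (chromosome 13, 52967209 to 52981073), a bZIP repressor of clock output genes, had 22, 26.9 and 23.8 CPM with MBQ-167, against 43.9, 40.2 and 50.3 CPM with vehicle (-0.89 ± 0.14, adjusted p = 0.0254). Cited2 (chromosome 10, 17723218 to 17725674), a transcriptional co-regulator that competes with HIF-1α for its coactivator, had 34.8, 34.0 and 40.7 CPM with MBQ-167, against 72.3, 54.2 and 73.3 CPM with vehicle (-0.87 ± 0.14, adjusted p = 0.0254). Each of these genes had a clear gap between the groups. Serpinb6a (chromosome 13, 33917918 to 34002794), an intracellular inhibitor of serine proteases, had 135, 135 and 117 CPM with MBQ-167, against 212, 193 and 193 CPM with vehicle (-0.63 ± 0.10, adjusted p = 0.0377), and it overlaps Nqo2, Ripk1 and 1110046J04Rik on the opposite strand. Rn7sk (ENSMUSG00000065037, chromosome 9, 78175303 to 78175633) is the small nuclear RNA that holds the elongation kinase P-TEFb inactive. How selection of polyadenylated RNA captured this small RNA was not tested, and its many genomic copies also make its count uncertain. Rn7sk had 3174, 3088 and 3281 CPM with MBQ-167, against 5391, 5211 and 5012 CPM with vehicle (-0.71 ± 0.12, adjusted p = 0.04). Ppp1r15a missed the threshold without each MBQ-167 library in turn (adjusted p up to 0.13). Nfil3, Cited2, Serpinb6a and Rn7sk passed only without the second vehicle library, and their adjusted p otherwise reached 0.166, 0.181, 0.314 and 0.234. With the GC correction Rn7sk had -0.68 (adjusted p = 0.0599). None of these 5 genes passed in a model of the 6 libraries alone or with the neutrophil level in the model, where Ppp1r15a had an adjusted p of 0.0836.

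The 3 genes that rose were modest in level. Tmem229b (ENSMUSG00000046157, chromosome 12, 78961795 to 79007627), which encodes a transmembrane protein, had 28.9, 25.3 and 25.2 CPM with MBQ-167, against 15.6, 16.3 and 13.1 CPM with vehicle (0.82 ± 0.13, edgeR adjusted p = 0.0254). The noncoding transcript 4930404I05Rik (chromosome 16, 91011249 to 91016743), which overlaps Synj1 and Paxbp1 on the opposite strand, had 9.1, 14.5 and 11.5 CPM with MBQ-167, against 5.21, 5.38 and 5.27 CPM with vehicle (1.15 ± 0.18, adjusted p = 0.0254). Gm38253 (chromosome 3, 106725599 to 106730276), of the annotation class TEC (loci still awaiting experimental evidence), had 4.8, 5.7 and 5.17 CPM with MBQ-167, against 1.81, 1.5 and 2.36 CPM with vehicle (1.45 ± 0.23, adjusted p = 0.0254). In none of the 3 did the groups overlap. Tmem229b passed only without the second vehicle library and otherwise had an adjusted p of up to 0.127, with values from 0.73 to 0.88. Gm38253 passed only without the third vehicle library, and 4930404I05Rik without the first MBQ-167 library and without the second vehicle library, with adjusted p up to 0.156 in each. With the GC correction 4930404I05Rik had 0.96 (adjusted p = 0.0632) and Gm38253 had 0.97 (adjusted p = 0.146). None of the 3 passed in a model of the 6 libraries alone or with the neutrophil level in the model.

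**Figure D2:**
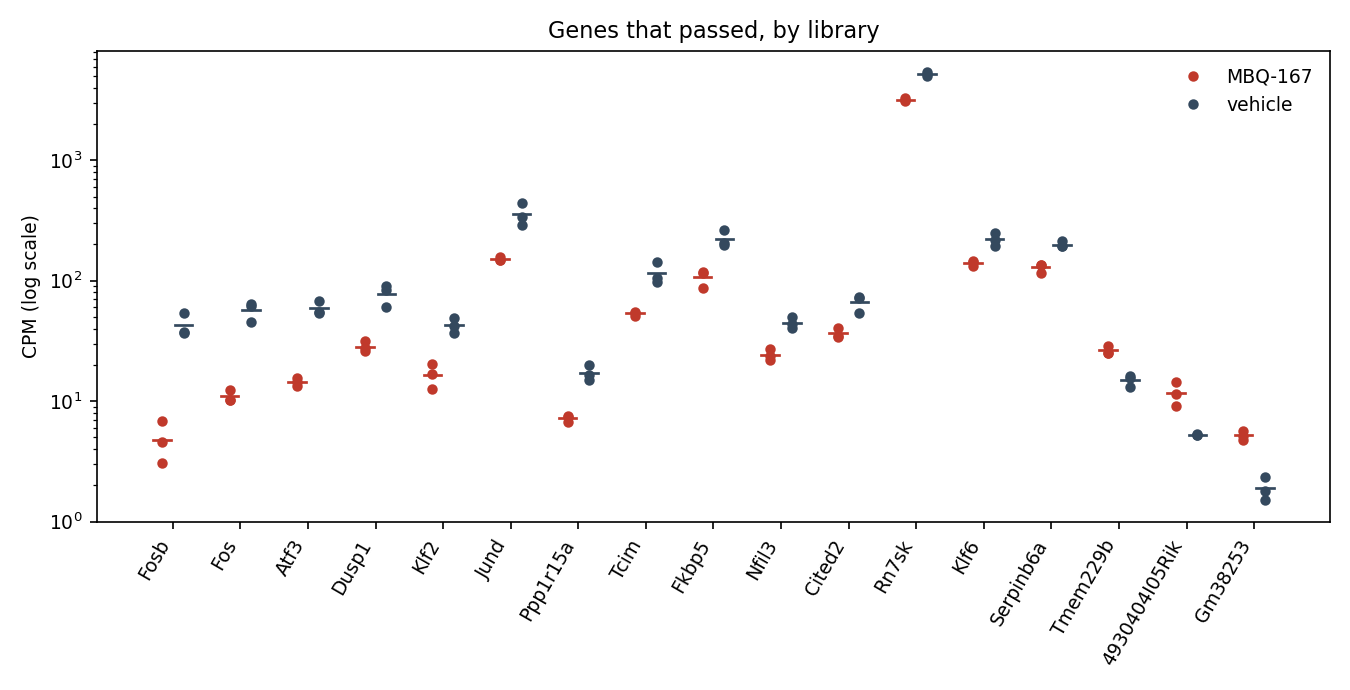
CPM of the 17 genes that passed, on a log scale, in each MBQ-167 library (red, left of each pair) and each vehicle library (dark, right), with short bars at the means of 3 libraries. The groups do not overlap in any of these genes, from Gm38253 between 1.5 and 5.7 CPM to Rn7sk between 3088 and 5391 CPM.

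Glucocorticoid-induced genes, which carry the transcriptional response to the stress hormone corticosterone, were lower as a list. Of 16 tested, 2 fell (Dusp1 and Fkbp5), 13 were lower and 0 higher at an unadjusted p under 0.05, against 7.05% lower among all genes, and the median was -0.64. Without the third vehicle library 12 were lower, with a median of -0.55. With the neutrophil level in the model 9 were lower and 1 higher, with a median of -0.61. Per1, a repressor of the clock that the hormone also induces, had 33.0, 38.9 and 23 CPM with MBQ-167, against 61.1, 49.0 and 84.7 CPM with vehicle (-1.04 ± 0.21, edgeR adjusted p = 0.116). Every MBQ-167 library lay below every vehicle library. The list shares Per1 with the circadian clock, where Nfil3 was the 1 of 19 genes that fell, 5 were lower and 0 higher at an unadjusted p under 0.05 (4 lower without the third vehicle library), and the median was -0.11. Bhlhe40, another repressor of the clock, had 111, 97.4 and 86.6 CPM with MBQ-167, against 140, 141 and 137 CPM with vehicle (-0.50 ± 0.13, adjusted p = 0.151). The TGTTCT core of the glucocorticoid response element lay in 2 of 14 promoter windows of the hormone-induced list (14.3%) and in 12.7% of all.

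Heat shock chaperones, which refold proteins under proteotoxic stress, were lower as well, though 0 of 17 passed with edgeR or limma voom and 3 with DESeq2. At an unadjusted p under 0.05, 8 were lower and 1 higher, with a median of -0.29. Leaving out the third vehicle library, 10 were lower and 0 higher. Hspa1b, an inducible HSP70, had 16.9, 27.1 and 20.7 CPM with MBQ-167, against 66.4, 92.9 and 78.5 CPM with vehicle (-1.88 ± 0.34, edgeR adjusted p = 0.0577). The groups stand well apart, but the gene shares reads with its near-identical neighbour Hspa1a, so its own level is uncertain. Hsp90ab1, a constitutive HSP90, had 1749, 1573 and 1506 CPM with MBQ-167, against 2374, 1902 and 2446 CPM with vehicle (-0.48 ± 0.13, adjusted p = 0.152). Hspb1, a small heat shock protein, had 1.93, 3.54 and 1.28 CPM with MBQ-167, against 5.52, 5.61 and 8.37 CPM with vehicle (-1.54 ± 0.42, adjusted p = 0.157). The heat shock element printed above lay in 8 of 12 promoter windows of the list (66.7%) and in 5.74% of all.

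The integrated stress and unfolded protein responses slow translation and raise folding capacity when proteins misfold. Of 23 tested, Ppp1r15a fell, 6 were lower and 0 higher at an unadjusted p under 0.05, and the median was -0.25. In the fit lacking the third vehicle library 9 were lower. Ddit3, the bZIP factor CHOP, had 8.02, 7.8 and 8.89 CPM with MBQ-167, against 15.6, 12.7 and 14.7 CPM with vehicle (-0.80 ± 0.17, edgeR adjusted p = 0.128). The groups did not overlap in it. Herpud1, which assists the degradation of misfolded proteins at the endoplasmic reticulum, had -0.54 ± 0.17 (adjusted p = 0.191).

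Hypoxia-induced genes, targets of HIF-1 in poorly perfused tumour, were also lower without passing. Of 23 tested, 0 passed with edgeR or voom and 6 with DESeq2, and 11 were lower and 0 higher at an unadjusted p under 0.05, with a median of -0.32. Adm, the vasodilator adrenomedullin, had 15.2, 10.4 and 9.8 CPM with MBQ-167, against 20, 29.3 and 42.8 CPM with vehicle (-1.38 ± 0.27, edgeR adjusted p = 0.0846). Ndrg1, a stress-induced protein linked to differentiation, had 331, 409 and 262 CPM with MBQ-167, against 525, 488 and 872 CPM with vehicle (-0.91 ± 0.22, adjusted p = 0.14). The third vehicle library was the highest in both genes, and without it 9 genes of the list were lower with a median of -0.38. With the neutrophil level in the model 6 genes of the list were lower with a median of -0.36. Slc2a1, a glucose transporter that the hypoxia and glycolysis lists share, had 174, 213 and 150 CPM with MBQ-167, against 290, 304 and 316 CPM with vehicle (-0.76 ± 0.14, edgeR adjusted p = 0.0793). The hypoxia response core ACGTG lay in 10 of 16 promoter windows of the list (62.5%) and in 25.2% of all. Glycolysis genes had 13 of 20 lower, 0 higher and a median of -0.40, and 15 lower without the third vehicle library.

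Protein synthesis and turnover genes were lower by small amounts. Of 85 cytosolic ribosomal protein genes, 0 passed with edgeR or voom and 8 with DESeq2, and 37 were lower and 2 higher at an unadjusted p under 0.05, with a median of -0.36. Without the first vehicle library the median was -0.26, and without the third 37 were lower and 3 higher. Rps3, of the small subunit, had 635, 535 and 578 CPM with MBQ-167, against 892, 782 and 759 CPM with vehicle (-0.48 ± 0.12, edgeR adjusted p = 0.142). Rpl37, of the large subunit, had 79.5, 60.3 and 81.3 CPM with MBQ-167, against 126, 98.6 and 113 CPM with vehicle (-0.61 ± 0.15, adjusted p = 0.142). In both the groups did not overlap. Rpl36 had the lowest fold change of the list, -2.14 ± 0.43, at 8.3 to 12.1 CPM with MBQ-167 and 18.4 to 62.0 CPM with vehicle. Ribosomal protein genes have many processed pseudogenes, and how reads that fit several places were counted is not given in the sources used here, so single members are uncertain. Mitochondrial ribosomal proteins had 8 of 77 lower (10.4%, against 7.05% of all genes) and 0 higher, with a median of -0.09. Of 37 proteasome subunits 13 were lower and 0 higher, with a median of -0.18. Leaving out the third vehicle library, 11 mitochondrial ribosomal proteins and 16 proteasome subunits were lower. Psma3, a subunit of the catalytic core, had -0.49 ± 0.14 (adjusted p = 0.178).

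Nuclear genes of mitochondrial respiration moved in the same small range. Of 41 genes of oxidative phosphorylation, 0 passed with edgeR or voom and 3 with DESeq2, and 15 were lower and 0 higher at an unadjusted p under 0.05, with a median of -0.28. Without the third vehicle library 22 were lower with a median of -0.37. Cox4i1, a subunit of cytochrome c oxidase, had 171, 182 and 185 CPM with MBQ-167, against 290, 257 and 231 CPM with vehicle (-0.53 ± 0.15, edgeR adjusted p = 0.152). The groups did not overlap. The 13 mRNAs encoded by the mitochondrial genome had 1 higher and 0 lower with a median of -0.04, and that median was 0.44 without the third vehicle library and -0.32 with the GC correction. Genes of the TCA cycle had 6 of 27 lower, 0 higher and a median of -0.21, with Mdh2 at -0.37 ± 0.12 (adjusted p = 0.207).

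The drug targets and their partners showed small differences in mRNA. Rac1 had 266, 268 and 259 CPM with MBQ-167, against 315, 264 and 317 CPM with vehicle (-0.18 ± 0.12, edgeR adjusted p = 0.555). Cdc42 had 320, 304 and 273 CPM with MBQ-167, against 336, 340 and 277 CPM with vehicle (-0.09 ± 0.12, adjusted p = 0.825). The groups overlapped in both. The effector kinases Pak1 (-0.03 ± 0.15) and Pak2 (-0.12 ± 0.12) also overlapped between groups. Of 25 Rac and Cdc42 signalling genes, 0 passed with edgeR or voom and 1 with DESeq2, and 5 were lower and 0 higher at an unadjusted p under 0.05, with a median of -0.12. There were 5 lower and the median was -0.18 without the third vehicle library. Iqgap1, a scaffold that binds active Cdc42 and Rac1, had 552, 487 and 482 CPM with MBQ-167, against 662, 606 and 778 CPM with vehicle (-0.43 ± 0.13, adjusted p = 0.179). Cfl1, the actin-severing protein cofilin, had -0.31 ± 0.11 (adjusted p = 0.24).

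Regulators and readouts of that pathway had from 9.38% to 23.5% of members lower at an unadjusted p under 0.05, against 7.05% of all genes. The lowest share, of exchange factors and GAPs, is near that of all genes. The highest, of integrin and focal adhesion genes, rests largely on the third vehicle library. The exchange factors that load Rac and Cdc42 with GTP and the GAPs that end their activity had 3 of 32 lower, 0 higher and a median of -0.02. Fgd6, an exchange factor for Cdc42, had 44.8, 49.0 and 49.7 CPM with MBQ-167, against 55.7, 71.8 and 75.4 CPM with vehicle (-0.50 ± 0.13, edgeR adjusted p = 0.142). Genes of the actin-branching Arp2/3 complex and the WASP family had 2 of 19 lower, 0 higher and a median of -0.12, with Arpc1b at -0.36 ± 0.11 (adjusted p = 0.188). Targets of the actin-responsive factors SRF and YAP had 3 of 18 lower, 1 higher and a median of -0.10. In the fit lacking the third vehicle library they had 1 lower, 1 higher and a median of 0.00, and with the neutrophil level in the model 0 each way. Ccn1, a matrix protein among those targets, had -0.86 ± 0.21 (adjusted p = 0.14), while Ankrd1, another target, had 0.54 ± 0.16 (adjusted p = 0.188). Integrin and focal adhesion genes had 4 of 17 lower and 0 higher with a median of -0.16, and 1 lower with a median of -0.05 without the third vehicle library. Zyx, the focal adhesion protein zyxin, had 116, 105 and 99.4 CPM with MBQ-167, against 148, 151 and 145 CPM with vehicle (-0.48 ± 0.14, adjusted p = 0.172). In none of these lists did a member pass with edgeR or voom, and with DESeq2 1 passed in each but the integrin list, where 0 did.

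Matrix genes differed in a few members. Of 20 collagens and other matrix genes, 3 were lower and 0 higher at an unadjusted p under 0.05, with a median of -0.16 (0.09 without the third vehicle library). Col18a1, a basement membrane collagen and the source of endostatin, had 329, 312 and 278 CPM with MBQ-167, against 475, 437 and 576 CPM with vehicle (-0.69 ± 0.13, edgeR adjusted p = 0.0758). Col6a1, a chain of the pericellular collagen VI, had 265, 228 and 199 CPM with MBQ-167, against 362, 519 and 420 CPM with vehicle (-0.91 ± 0.18, adjusted p = 0.116), and its partner chain Col6a2 had -0.67 ± 0.21 (adjusted p = 0.202). The groups did not overlap in these 3 genes. None of the list passed with edgeR or voom and 2 with DESeq2, and without the third vehicle library 3 were lower. Adamts1, a secreted protease of proteoglycans, had 37.2, 29.6 and 31.7 CPM with MBQ-167, against 67.0, 44.0 and 88.9 CPM with vehicle (-1.02 ± 0.23, adjusted p = 0.14).

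Cell division genes showed few differences. Of 26 DNA replication genes, 0 passed with edgeR, voom or DESeq2 and 0 lay at an unadjusted p under 0.05 in either direction, with a median of -0.03. Of 25 genes of mitosis and the spindle, 2 were lower and 0 higher with a median of -0.05, and 2 lower and 1 higher without the third vehicle library. Mki67, the marker of cycling cells, had 185, 198 and 200 CPM with MBQ-167, against 202, 181 and 237 CPM with vehicle, and the groups overlapped (-0.09 ± 0.14, edgeR adjusted p = 0.843).

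Genes induced by interferon gamma, a cytokine of T and NK cells that arms macrophages and tumour cells against pathogens, were higher as a list. Of 18 effectors tested, 0 passed with edgeR or voom and 7 with DESeq2, and 15 were higher and 0 lower at an unadjusted p under 0.05, against 5.82% higher among all genes. All 18 values lay between 0.48 and 1.52, with a median of 1.04. Gbp7, a guanylate-binding protein, had 68.5, 75.0 and 65.0 CPM with MBQ-167, against 40.7, 37.4 and 26.5 CPM with vehicle (1.00 ± 0.20, edgeR adjusted p = 0.116). Irgm2, an immunity-related GTPase, had 58.0, 63.8 and 48.3 CPM with MBQ-167, against 30.8, 22.5 and 21.1 CPM with vehicle (1.19 ± 0.25, adjusted p = 0.14). Nlrc5, the transactivator of class I antigen presentation genes, had 99.4, 141 and 108 CPM with MBQ-167, against 60, 67.8 and 58.6 CPM with vehicle (0.90 ± 0.21, adjusted p = 0.14). In these 3 genes every MBQ-167 library lay above every vehicle library. Of 27 chemokines and receptors, 3 were higher and 4 lower with a median of 0.13. There were 2 higher and 5 lower without the third vehicle library, with a median of -0.05, and with the neutrophil level in the model the median was -0.20. The chemokine genes Cxcl9 (1.37 ± 0.43) and Cxcl10 (1.32 ± 0.37), which draw T cells, had adjusted p of 0.205 and 0.164.

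The type I interferon list, of genes that cells induce on sensing viral nucleic acids, was higher by less. Of 33 tested, 0 passed with edgeR or voom and 7 with DESeq2, and 14 were higher and 0 lower at an unadjusted p under 0.05, with a median of 0.38. Zbp1, a sensor of nucleic acids that triggers cell death, had 26.8, 23.8 and 22.7 CPM with MBQ-167, against 13.8, 12.3 and 12.7 CPM with vehicle (0.92 ± 0.16, edgeR adjusted p = 0.0548). Parp14, an ADP-ribosyltransferase, had 114, 121 and 118 CPM with MBQ-167, against 84.8, 84.7 and 77.5 CPM with vehicle (0.51 ± 0.12, adjusted p = 0.14). The spread within each group was small against the gap in both. Outside the list, the interferon-inducible cholesterol hydroxylase Ch25h had 6.52, 9.31 and 8.52 CPM with MBQ-167, against 1.51, 3.64 and 1.35 CPM with vehicle (1.91 ± 0.35, adjusted p = 0.0577).

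Other immune genes were also higher in part. Without the third vehicle library, 11 of the 18 interferon gamma effectors were higher with a median of 0.85, and 13 of the 33 type I genes with a median of 0.30. Once the neutrophil level entered the model, the counts were 8 with a median of 0.77, and 10 with a median of 0.23. The 15 T and NK cell markers summed to 46.6, 46.6 and 36.3 CPM with MBQ-167, against 43.5, 36 and 16.1 CPM with vehicle. Of them 4 were higher and 0 lower with a median of 0.64, and 2 higher and 1 lower with a median of 0.27 without the third vehicle library. Klrd1 and Ncr1, markers of NK cells, were at 0 counts in at least 1 library. The part of these cells in the interferon result was not tested. Class I antigen presentation genes had 4 of 15 higher and 0 lower (median 0.29), and 2 higher without that library. Class II genes had 1 of 10 higher, Ciita, and a median of 0.60, and 0 higher with a median of 0.23 without it. The interferon response element lay in 9 of 12 promoter windows of the interferon gamma list (75.0%), in 14 of 24 of the type I list (58.3%) and in 3.15% of all. Across all genes at an unadjusted p under 0.05, it lay in 7.68% of 625 windows of genes higher in MBQ-167 and in 2.7% of 816 windows of genes lower in it.

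**Figure D3:**
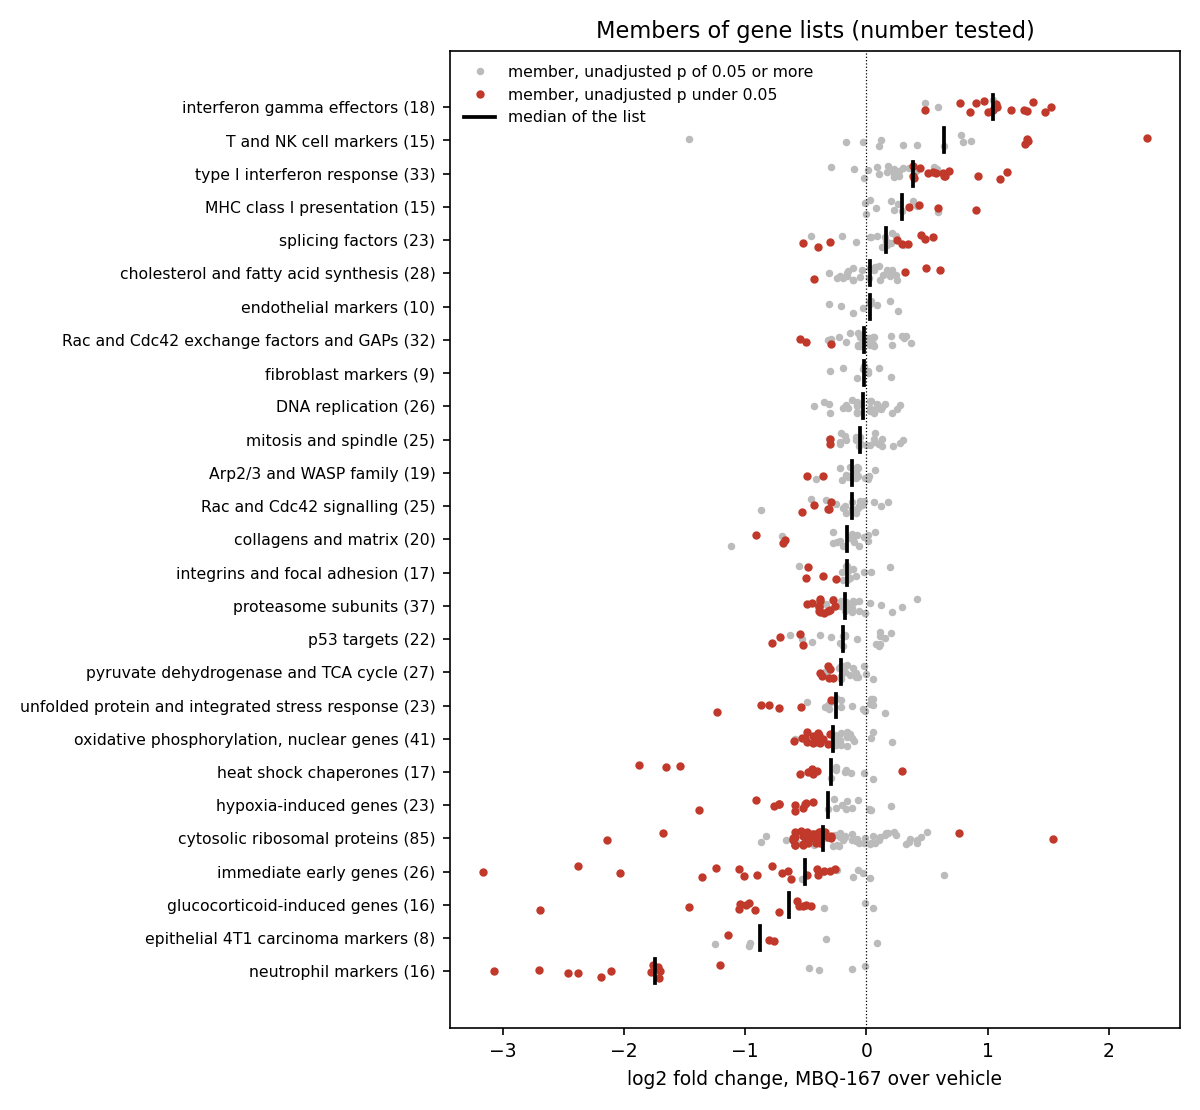
Log2 fold change of MBQ-167 over vehicle for the tested members of 27 gene lists, sorted by median. Points are genes, red where the unadjusted p is under 0.05, and black bars are medians, from -1.74 for neutrophil markers to 1.04 for interferon gamma effectors.

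Markers of tumour and host cells showed how far lists rest on the third vehicle library. Of 16 neutrophil markers, 0 passed with edgeR or voom and 4 with DESeq2, and 12 were lower and 0 higher with a median of -1.74. Without the third vehicle library 5 were lower with a median of -0.66. In 11 of the 16 (68.8%, against 8.79% of all genes) every MBQ-167 library lay below every vehicle library. Their mean log2 level, relative to the 6 libraries, was -0.78, -0.56 and -0.51 with MBQ-167, against 0.11, -0.09 and 1.83 with vehicle. S100a9, a subunit of the neutrophil protein calprotectin, had 52.2, 75.8 and 70.9 CPM with MBQ-167, against 110, 137 and 403 CPM with vehicle (-1.71 ± 0.41, edgeR adjusted p = 0.14). The groups did not overlap, and the third vehicle library was far above the other vehicle libraries. Erythroid markers, the globins among them, had 4 of 6 lower and a median of -1.69, and summed to 90.4, 44.6 and 108 CPM with MBQ-167, against 265, 259 and 258 CPM with vehicle. That sum is carried by Hbb-bs. The mean log2 level of the list, relative to the 6 libraries, was -0.52, -1.08 and -0.52 with MBQ-167, against 0.12, 0.88 and 1.12 with vehicle. In the fit lacking the third vehicle library 2 of 6 were lower (median -1.41), and with the neutrophil level in the model 0 were (median -0.73). The alpha globin genes Hba-a1 and Hba-a2 are near-identical copies, so their single values are uncertain. Macrophage markers had 0 of 12 at an unadjusted p under 0.05 with a median of -0.23, and 7 lower with a median of -0.57 without the third vehicle library.

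The carcinoma markers checked the tissue label. Of 8 epithelial markers, none was at 0 in any library, and their sum was 1154, 1042 and 1565 CPM with MBQ-167, against 2087, 992 and 3040 CPM with vehicle. They had 3 lower and 0 higher with a median of -0.88, and 2 lower with a median of -0.29 without the third vehicle library. Krt8, a simple epithelial keratin, had 300, 277 and 344 CPM with MBQ-167, against 534, 371 and 694 CPM with vehicle (-0.80 ± 0.18, edgeR adjusted p = 0.14). For Krt8 alone the groups stood apart, though the summed level overlapped. Of 5 markers of milk-secreting mammary epithelium, only Csn3 passed the filter on low counts. Endothelial, fibroblast and pericyte markers had 0 genes at an unadjusted p under 0.05, with medians of 0.03, -0.02 and -0.08.

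**Figure D4:**
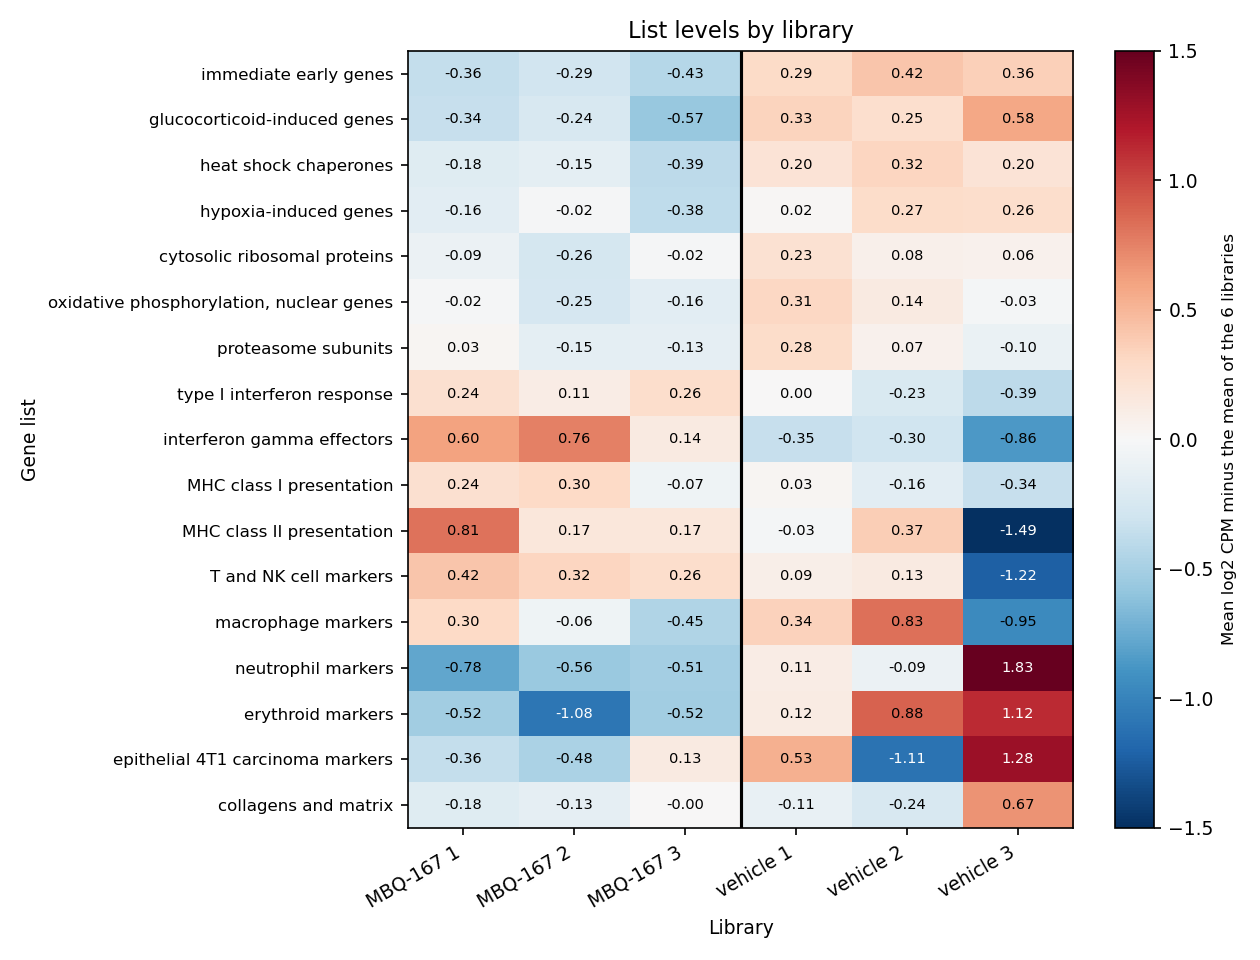
Mean log2 CPM of 17 gene lists in each library, relative to the mean of the 6 libraries, with the MBQ-167 libraries left of the line and the vehicle libraries right of it. Immediate early genes are between -0.43 and -0.29 in MBQ-167 libraries and between 0.29 and 0.42 in vehicle libraries, while neutrophil markers reach 1.83 in the third vehicle library alone (colours end at -1.5 and 1.5).

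Other genes with the smallest p among those higher in MBQ-167 did not pass. Fubp1, which binds single-stranded DNA upstream of Myc, had 133, 164 and 177 CPM with MBQ-167, against 86.1, 92.3 and 110 CPM with vehicle (0.72 ± 0.13, edgeR adjusted p = 0.0577). Fam208a, a subunit of the HUSH complex that silences repeats and retroelements, had 66.8, 70.5 and 68.3 CPM with MBQ-167, against 40.3, 50.9 and 41.5 CPM with vehicle (0.63 ± 0.13, adjusted p = 0.116). Mir17hg, the host transcript of an oncogenic cluster of microRNAs, had 10.0, 12.6 and 13.6 CPM with MBQ-167, against 5.52, 5.93 and 7.97 CPM with vehicle (0.90 ± 0.20, adjusted p = 0.14). No library of the groups overlapped in these genes. Cep95 (0.74 ± 0.15), a centrosomal protein, Miga2 (0.69 ± 0.15), a regulator of mitochondrial fusion, and Ypel4 (1.53 ± 0.34) had adjusted p of 0.128, 0.14 and 0.14.

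Whether MBQ-167 differed from the other single drug was tested directly. In MBQ-167 against paclitaxel, 0 of 18252 genes passed with edgeR or voom and 32 with DESeq2 (0.104%), and 1256 genes (6.88%) had an unadjusted p under 0.05. Both drugs are compared with the same vehicle libraries, so values are set side by side without a correlation. Fos had 10.3, 10.2 and 12.4 CPM with MBQ-167, against 13.7, 7.51 and 9.94 CPM with paclitaxel (MBQ-167 minus paclitaxel 0.07 ± 0.23, edgeR adjusted p = 0.983). Tmem229b had 28.9, 25.3 and 25.2 CPM with MBQ-167, against 26.5, 26.9 and 26.3 CPM with paclitaxel (0.00 ± 0.13, adjusted p = 0.998). The 2 drugs overlapped in both genes. Among the 17 genes the widest difference between the drugs was in Rn7sk, whose count is uncertain as described above. It had 3174, 3088 and 3281 CPM with MBQ-167, against 4684, 5282 and 4850 CPM with paclitaxel (-0.63 ± 0.12, adjusted p = 0.375). The MBQ-167 libraries lay below those of paclitaxel, of the combination (4259 to 4902 CPM) and of vehicle, but the direct difference from paclitaxel did not pass. The other 16 genes had differences between the drugs from -0.48 to 0.27.

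The difference between the groups also followed the composition of transcripts. Across 18144 genes with a GC value, the log2 fold change had a Spearman correlation of -0.199 with GC content and of 0.0862 with exon length, and across the 18252 genes tested one of -0.235 with mean expression. Genes are not independent, so no p is given. In the tenth of genes lowest in GC content (26.3% to 41.7%), 287 were higher and 42 lower at an unadjusted p under 0.05, with a median of 0.21. In the tenth highest in GC content, 52 were higher and 155 lower with a median of -0.06. After the GC correction those medians were -0.06 and -0.02, and 751 genes (4.14%) were higher and 1542 (8.5%) lower over all classes.

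**Figure D5:**
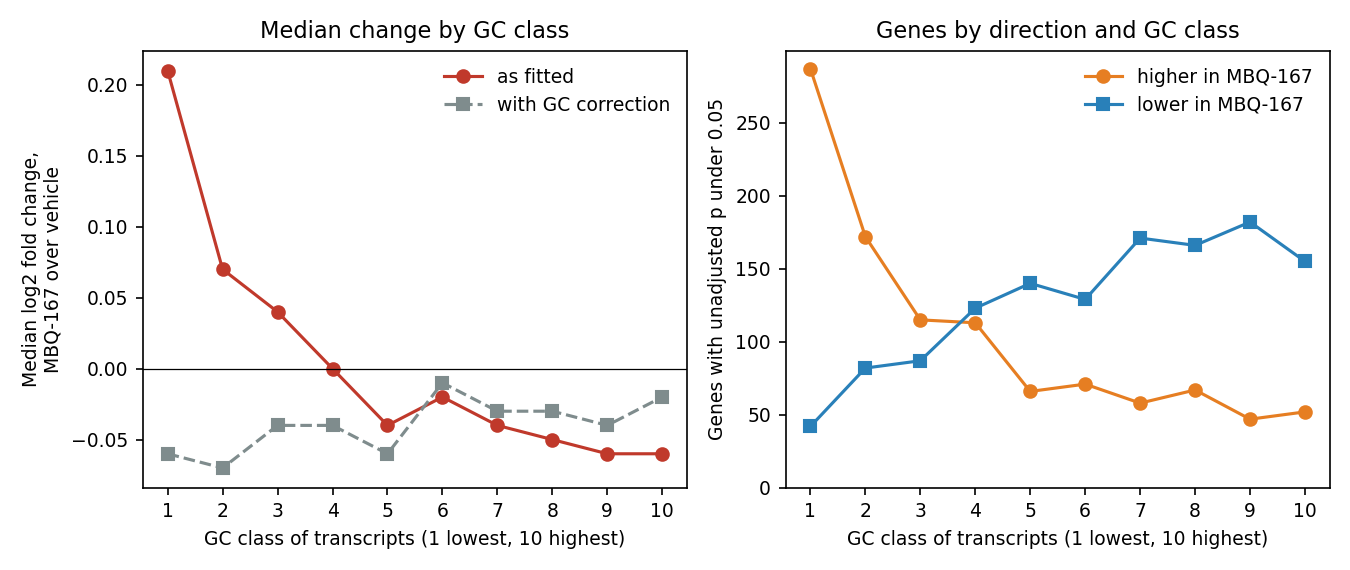
Genes in 10 classes of transcript GC content. The left panel gives the median log2 fold change of MBQ-167 over vehicle as fitted and with the GC correction, and the right panel the number of genes higher and lower in MBQ-167 at an unadjusted p under 0.05. The lowest class stands out with a median of 0.21 and 287 genes higher, and its median is -0.06 with the correction.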

How the data were processed

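Polyadenylated RNA of 12 tumour libraries was sequenced. The authors deposited 1 table of raw, unnormalized read counts, with genes down and the 12 libraries across. Per the submitters' processing notes, reads were processed with HISAT2 and HTSeq on GRCm38, and the notes also name DESeq2. Neither their versions nor the annotation, the strandedness and the treatment of multiply mapped reads were stated in what was used here. The table lists 46078 genes, of which 45143 matched GENCODE M21, the source of symbols, positions and GC content.

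Genes were kept by filterByExpr of edgeR 4.0.16 with a minimum count of 10, which left 18252. The quasi-likelihood test used TMM factors and 1 model of the 12 libraries (biological coefficient of variation 0.214, 8 residual degrees of freedom), with Benjamini-Hochberg adjustment over all genes. The paired replicate numbers were tried only as an alternative. R was 4.3.3 and figures used matplotlib 3.10.9. The fit was tested on simulated data. Lists were described by counts and medians with no set test.

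Total counts ran from 11540557 to 17001562 per library. Named were every gene that passed, the 12 smallest p per direction among non-overlapping genes with a symbol other than Gm or Rik and a mean of at least 1 CPM, up to 3 members of each list described by smallest p, and Rac1, Cdc42, Pak1, Pak2, Mki67, Tmem229b and Tcim. The libraries, the lists and the rules were chosen with earlier results of these data known. The alternatives were DESeq2 1.42.0, voom of limma 3.58.1, RLE size factors, no filter or a stricter one of 1 CPM in 3 libraries, a fit of the groups compared only, the replicate block, protein-coding genes only, no features above 2% of counts, a GC spline with 5 degrees of freedom, a covariate for the neutrophil marker level, and leaving out each library in turn. Replicates were compared by a chi-square of their counts, which was 18.6 to 39.1 per degree of freedom, so none was a copy of another.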

Additional observations from a re-analysis of the deposited data

How the results depend on the processing

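Against vehicle, 3 genes were higher and 14 lower with MBQ-167. The counts were 112 and 205 with DESeq2, 116 and 276 with no filter on low counts, 1 and 7 with the neutrophil level as a covariate, and 0 and 5 when the model held the 2 groups alone. Higher genes numbered 1 with limma voom and 1 with the GC correction, and the lower ones stayed within 1.5 times of 14. With the replicate number as a block, 10 were higher and 14 lower, but the numbers do not pair the libraries, since the same-number correlations of deviations were 0.1, 0.0155 and 0.122. Leaving out 1 library gave 0 to 5 higher and 5 to 37 lower, with 37 without the second vehicle library. Against paclitaxel, where 0 passed each way, there were 5 higher and 27 lower with DESeq2, 2 and 11 with no filter, and 1 higher when the model held the 2 groups alone. The cause was not tested, beyond the smaller number of libraries in the last. No direction of a gene that passed turned round in any fit. List medians moved by more than the spread between libraries in 42 of their alternatives and by less in 939. With 3 libraries per group the median SE of a gene was 0.23, and the smallest log2 change that passed was 0.63.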

Other observations

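Zinc finger genes named Zfp, many of them KRAB-type repressors of retroelements, had 33 of 339 higher and 5 lower with MBQ-167 at an unadjusted p under 0.05, with a median of 0.08. With the GC correction they had 13 higher and 11 lower with a median of 0.00. Zfp979 had 2.65, 2.89 and 4.38 CPM with MBQ-167, against 1.66, 1.19 and 0.54 CPM with vehicle (1.56 ± 0.36, edgeR adjusted p = 0.14). Splicing factors had 6 of 23 higher and 3 lower with a median of 0.16, and 3 each with the GC correction. In the fit lacking the third vehicle library 41 Zfp genes were higher and 5 lower, and 7 splicing factors were higher and 2 lower. Srsf10, a regulator of alternative splicing, had 70.3, 77.6 and 69.8 CPM with MBQ-167, against 51.3, 55.7 and 49.6 CPM with vehicle (0.48 ± 0.11, adjusted p = 0.14). Hnrnpu, a nuclear matrix RNA-binding protein, had 0.55 ± 0.15 (adjusted p = 0.152).

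Classes of transcript differed. Of 679 loci of the annotation class TEC, which await experimental evidence, 119 (17.5%) were higher and 5 (0.736%) lower with MBQ-167 at an unadjusted p under 0.05, with a median of 0.46, and 62 and 8 with the GC correction. Of 440 lincRNA genes, 54 were higher and 9 lower, and 37 and 15 with that correction. Of 1253 processed pseudogenes, 27 were higher and 121 lower with a median of -0.18, and 22 and 139 with the correction. Protein-coding genes, with higher expression, had 704 of 13725 higher and 1039 lower. Of 57 replication-dependent histone genes, 8 were lower and 0 higher with a median of -0.21. There were 15 lower and 1 higher without the third vehicle library, and with the neutrophil level in the model 16 were lower. Hist1h1c, a linker histone, had 247, 205 and 204 CPM with MBQ-167, against 446, 333 and 294 CPM with vehicle (-0.71 ± 0.18, adjusted p = 0.143). How selection of polyadenylated RNA captured histone mRNAs was not tested, so their counts may not follow their expression.

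Amino acid supply genes had 2 of 20 higher and 4 lower, drug efflux and metabolism genes 2 of 15 each way, and BCL2 family genes 2 of 14 higher and 1 lower, all at an unadjusted p under 0.05. Among all genes 5.82% were higher and 7.05% lower, and in lists this small 1 or 2 members say little beside those shares. Without the third vehicle library 9 amino acid supply genes were lower (median -0.30) and 10 with the neutrophil level in the model, while drug efflux and metabolism genes had 1 each way. Slc7a11, the cystine transporter, had 35.4, 34.2 and 101 CPM with MBQ-167, against 23.6, 31.6 and 19.9 CPM with vehicle (1.19 ± 0.34, edgeR adjusted p = 0.168), and the third MBQ-167 library was far above the others. Abcc4, a drug efflux pump, had 0.63 ± 0.16 and Bcl2, an inhibitor of apoptosis, had 0.57 ± 0.16 (adjusted p = 0.142 and 0.152). The groups did not overlap in Abcc4, at 18.2 to 20.1 CPM with MBQ-167 and 10.8 to 14.8 CPM with vehicle.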
